A study of Homo sapiens with 5 samples.

Results

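The genes described here encode the receptor for interleukin 7 (IL7) and the JAK-STAT5 pathway behind it, measured in Nalm6, a human leukaemia line established from B-cell precursors. The 10 genes were taken by name as a receptor pair (IL7R and IL2RG), 3 Janus kinases (JAK1, JAK2 and JAK3), both STAT5 factors (STAT5A and STAT5B) and 3 feedback targets (CISH, SOCS2 and SOCS3). All 10 were found, each with a single probe set, among 18417 genes with a probe set annotated to exactly 1 symbol. The arrays compared 3 clones expressing a short hairpin RNA (shRNA) against MondoA, a glucose-responsive transcription factor encoded by MLXIP, with 2 clones expressing a nonsense shRNA, at 1 array per clone. All 5 clones grew in medium with 200 mg/dl glucose and 20% serum, to which the labels name no added IL7. Nothing in the labels says that clones within a group came from separate transductions, so the p-values measure the spread between these clones.

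IL7 binds a pair of chains, IL7R and the common gamma chain, and the kinases JAK1 and JAK3 bound to them phosphorylate STAT5A and STAT5B, which then enter the nucleus. Normal human B-cell precursors carry this receptor, and activating changes in its chains and kinases are known in acute lymphoblastic leukaemia. Phosphorylated STAT5 switches on CISH, SOCS2 and SOCS3, whose proteins bind the receptor or the kinases and dampen the signal, so their RNA is commonly read as a sign of pathway activity.

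STAT dimers bind a palindrome of TTC and GAA held apart by any 3 bases, TTCNNNGAA, which reads the same on both strands. RefSeq promoter windows, which run from 250 bases before to 50 bases after a start, were found for 9 of the 10 genes and not for SOCS2. CISH, a classical STAT5 target, is shown because its window was the only one of the 17 windows of these genes that held the palindrome, and it held 4 copies, in capitals below. The window lies at chr3:50611725-50612024 of GRCh38.p14 on the minus strand and is written 5′ to 3′ in the direction of transcription.
CISH: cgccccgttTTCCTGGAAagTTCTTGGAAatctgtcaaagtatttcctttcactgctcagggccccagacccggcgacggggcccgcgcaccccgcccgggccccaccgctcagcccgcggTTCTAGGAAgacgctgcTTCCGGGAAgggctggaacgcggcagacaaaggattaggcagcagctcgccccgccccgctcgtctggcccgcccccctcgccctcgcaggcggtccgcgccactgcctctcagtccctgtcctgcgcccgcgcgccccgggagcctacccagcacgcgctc
The copies began 241, 230, 129 and 112 bases before the annotated start. Of 35116 windows of the same length over all genes, 7.66% held at least 1 copy and 0.0199% held at least 4. A match to these letters is a description of the sequence and not a measured binding site, and no match says only that the letters are not in that window.

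Expression is given as log2 RMA values, where RMA (robust multi-array average) equalises the distributions of the arrays and summarises each probe set as a single value. Errors are SD over n = 3 MondoA shRNA and n = 2 control shRNA arrays unless an SE is named. Differences are MondoA shRNA minus control shRNA, with p-values from limma over all 18417 genes and Benjamini-Hochberg adjustment. RNA of the targeted gene MLXIP did not separate the groups, reading 6.42, 6.47 and 6.29 in MondoA shRNA clones 1, 2 and 3, against 6.42 in both control shRNA clones, so directions below refer to the label. MondoA shRNA clones 1 and 2 were the least alike of all array pairs, with a Pearson correlation of 0.990 over probe sets against 0.995 for the control shRNA pair. The B-precursor identity of the line was borne out by its markers, since none of 12 measured markers (of 14 listed) had both group means below the median gene level of 4.15. For other lineages both group means lay below it for 7 of 9 T and natural killer cell markers, all 5 measured myeloid markers and 2 of 3 measured erythroid markers. The summed level of the B-precursor markers ran from 101 to 104 in MondoA shRNA arrays and was 101 in both control shRNA arrays. The sum hides members with differences in both directions. CD22 differed by 1.27, CD79A by 0.91 and DNTT by -1.19, all named after their values were seen and all larger than any difference in the pathway. Before adjustment 4 of the 12 were higher and 1 was lower at a limma p under 0.05 (1.55% and 2.18% of all genes), and 0 passed after adjustment. Every MondoA shRNA array was above both controls for 4 of the 12 and below both for 3 (4.85% and 5.18% of all genes). Their part in the results was not tested.

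No gene of the pathway passed the test. At an adjusted p under 0.05 limma called 0 of the 10 genes, against 0% of all genes. Before adjustment 0 of the 10 reached a limma p under 0.05, against 3.73% of all genes. The largest measured differences went in opposite directions. STAT5A read higher in every MondoA shRNA clone than in both control shRNA clones, and SOCS2 read lower in every MondoA shRNA clone. Groups that do not overlap were seen for these 2 of 10 genes and for 10% of all genes. A value shared between the groups can prevent separation. At least 3 arrays shared a value for 54.0% of all genes but not for this pair, so the shares do not show an excess. An absolute difference of at least 0.5 was reached by the same pair and by 1.73% of all genes. Across the 10 genes, 3 had a positive difference and 7 a negative one, with a median of -0.06, whereas over all genes 49.1% were positive and 41.2% negative with a median of 0.00.

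**Figure D1:**
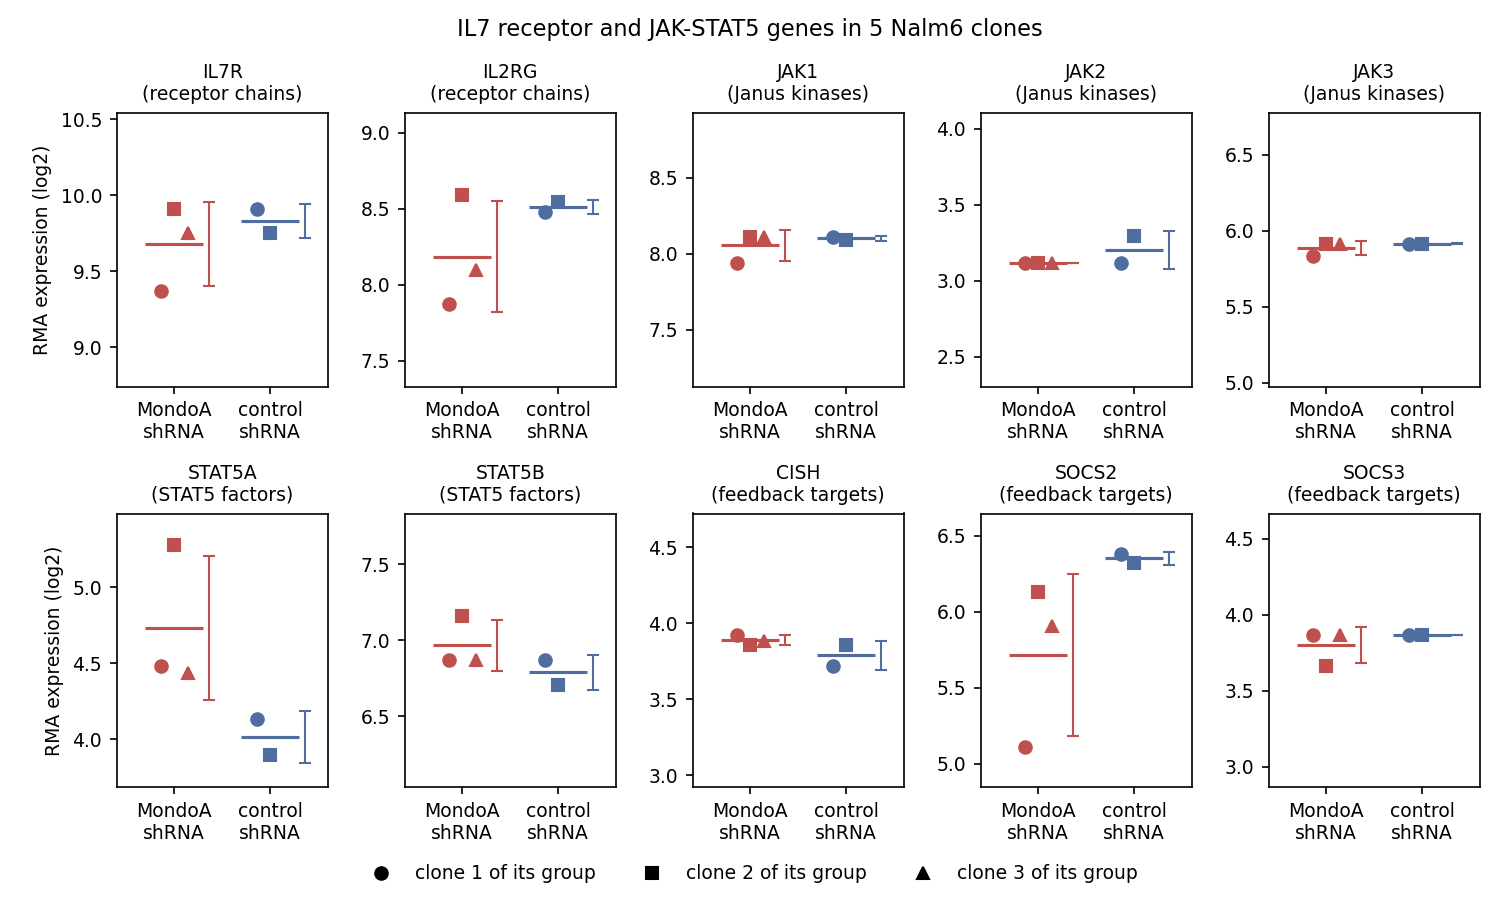
RMA expression (log2, vertical axis) of each of the 10 genes in 3 MondoA shRNA clones (red) and 2 control shRNA clones (blue), with the group mean as a line and the SD as a bar, each panel spanning the same number of log2 units. Only STAT5A (MondoA shRNA clones at 4.43 to 5.27, control shRNA clones at 3.90 to 4.13) and SOCS2 (5.11 to 6.13 against 6.32 to 6.38) show groups that do not overlap.

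The receptor chains were brightly measured and varied between the MondoA shRNA clones. IL7R, the chain that is specific to IL7 and its relative TSLP, read 9.37, 9.91 and 9.75 in MondoA shRNA clones 1, 2 and 3, against 9.91 and 9.75 in control shRNA clones 1 and 2. MondoA shRNA clone 1 was low and the other MondoA shRNA clones lay within the control range, so the groups overlapped. The IL7R difference was -0.15 ± 0.20 (SE), its 95% interval running from -0.73 to 0.42 (limma adjusted p = 0.833), and it was -0.0018 without MondoA shRNA clone 1. IL2RG, the common gamma chain shared by the receptors for IL2, IL4, IL7, IL9, IL15 and IL21, read 7.87, 8.59 and 8.10 in MondoA shRNA clones 1, 2 and 3, against 8.48 and 8.55 in control shRNA clones. Clones 1 and 3 with MondoA shRNA were below both controls, while clone 2 was above them. The IL2RG difference was -0.33 ± 0.25 (SE), with an interval from -1.06 to 0.41 (limma adjusted p = 0.833). Without MondoA shRNA clone 2 it was -0.53 (limma unadjusted p = 0.0234, adjusted p = 0.635), and without clone 1 it was -0.17.

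The Janus kinases showed the narrowest spread. JAK1, the kinase held by IL7R, read 7.94, 8.11 and 8.11 in MondoA shRNA clones 1, 2 and 3, against 8.11 and 8.09 in control shRNA clones. Its difference was -0.05 with a 95% interval from -0.25 to 0.16, and it turned to 0.0126 without MondoA shRNA clone 1. JAK3, the kinase held by the common gamma chain, read 5.83, 5.91 and 5.91 in MondoA shRNA clones, against 5.92 and 5.91 in control shRNA clones. The JAK3 difference was -0.03, and its interval from -0.12 to 0.06 was the narrowest of the 10 genes. JAK2, which serves other cytokine receptors and the TSLP receptor, read 3.12 in all 3 MondoA shRNA clones and in control shRNA clone 1, and 3.29 in control shRNA clone 2. Both JAK2 group means lay below the median gene level, so the probe set may not report RNA, and its difference of -0.09 rests on control shRNA clone 2. The limma adjusted p was 0.869 for JAK1, 0.833 for JAK2 and 0.833 for JAK3.

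Repeated values such as those of JAK2 are common in this table. At least 3 of the 5 arrays shared exactly the same value for 54.0% of all genes, and among the 10 genes this held for JAK1, JAK2, JAK3, STAT5B and SOCS3. Such ties shrink the measured spread, so a small SD in those genes is not a measure of biological stability.

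Of the STAT5 factors, STAT5A separated the groups and STAT5B did not, and both were highest in MondoA shRNA clone 2. STAT5A read 4.48, 5.27 and 4.43 in MondoA shRNA clones 1, 2 and 3, against 4.13 and 3.90 in control shRNA clones 1 and 2. Every MondoA shRNA clone was above both controls, a pattern shared in that direction by 4.85% of all genes, and clone 2 stood above the other two. The group means were 4.73 ± 0.47 in MondoA shRNA clones and 4.02 ± 0.17 in control shRNA clones, and the control shRNA mean lay below the median gene level. The difference of 0.72 ± 0.33 (SE), or 1.64-fold, had an interval from -0.26 to 1.69 and did not pass (limma unadjusted p = 0.107, adjusted p = 0.833). Its size ranked 118th of 18417 genes. Without MondoA shRNA clone 2 it was 0.44 (limma unadjusted p = 0.0381, adjusted p = 0.635).

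STAT5B, the close paralogue of STAT5A and its neighbour on chromosome 17, read 6.87, 7.16 and 6.87 in MondoA shRNA clones 1, 2 and 3, against 6.87 and 6.71 in control shRNA clones. MondoA shRNA clones 1 and 3 equalled control shRNA clone 1, so the groups overlapped. The STAT5B difference was 0.18 ± 0.13 (SE), its interval running from -0.19 to 0.55 (limma adjusted p = 0.833), and it was 0.08 without MondoA shRNA clone 2 and 0.10 without control shRNA clone 2. STAT5A and STAT5B transcripts are alike in sequence, and cross-hybridisation between their probe sets was not tested. Relative to each gene's mean over the 5 arrays, STAT5A minus STAT5B was 0.06, 0.57 and 0.02 in MondoA shRNA clones, against -0.28 and -0.36 in control shRNA clones. The 2 probe sets did not move by the same amount, which is no test of cross-hybridisation.

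The feedback targets did not move as a group. SOCS2, an adaptor of a ubiquitin ligase that restrains cytokine and growth hormone signalling, read 5.11, 6.13 and 5.91 in MondoA shRNA clones 1, 2 and 3, against 6.38 and 6.32 in control shRNA clones 1 and 2. Every MondoA shRNA clone was below both controls, a pattern shared in that direction by 5.18% of all genes, and clone 1 was far below the rest. The means were 5.72 ± 0.53 in MondoA shRNA clones and 6.35 ± 0.04 in control shRNA clones. The difference of -0.63 ± 0.37 (SE), a ratio of 0.644, had an interval from -1.70 to 0.43 and did not pass (limma unadjusted p = 0.167, adjusted p = 0.833). Without MondoA shRNA clone 1 it was -0.33 (limma unadjusted p = 0.0609, adjusted p = 0.661).

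CISH, whose protein occupies STAT5 docking sites on receptors, read 3.92, 3.86 and 3.88 in MondoA shRNA clones 1, 2 and 3, against 3.72 and 3.86 in control shRNA clones. The difference was 0.10 with an interval from -0.05 to 0.25 (limma adjusted p = 0.833), and MondoA shRNA clone 2 equalled control shRNA clone 2. The CISH difference was 0.03 without control shRNA clone 1 and 0.17 without control shRNA clone 2. The promoter with 4 copies of the STAT palindrome shown above thus belongs to a gene whose probe set was dim in every clone. SOCS3, which blocks Janus kinases directly, read 3.87, 3.66 and 3.87 in MondoA shRNA clones, against 3.87 in both control shRNA clones. Its difference was -0.07 (limma adjusted p = 0.833) and rests on MondoA shRNA clone 2. CISH and SOCS3 had both group means below the median gene level, so a small change in their RNA may not have been measurable. SOCS2 was thus the single feedback target measured above that level.

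**Figure D2:**
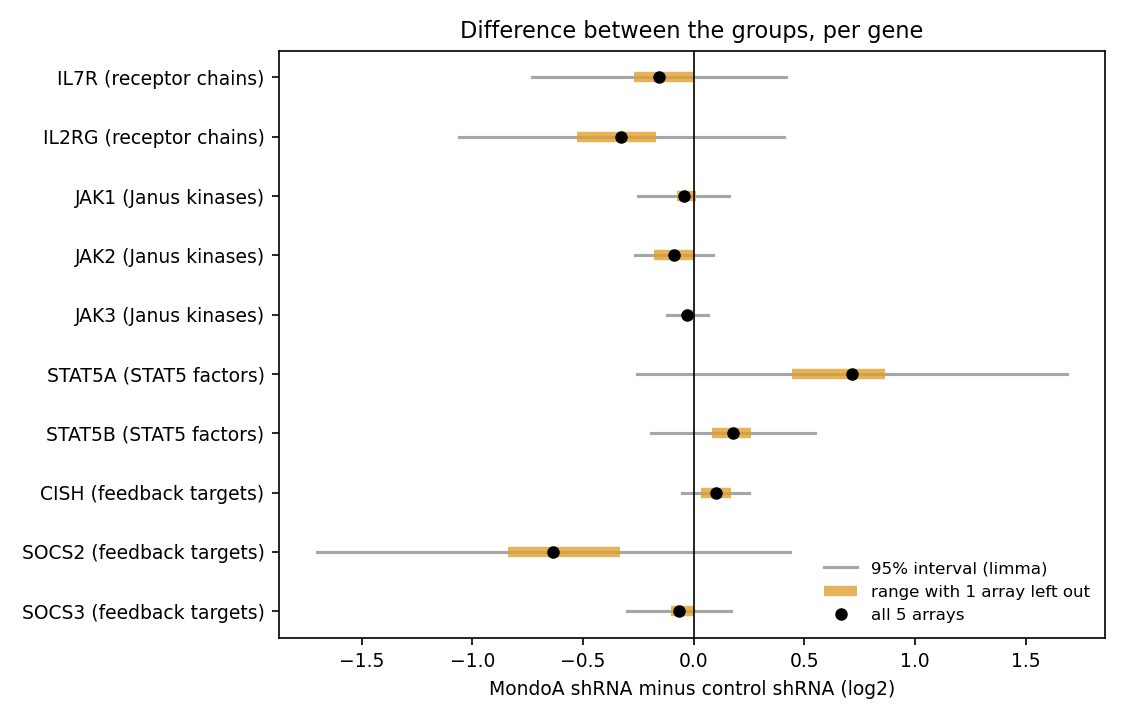
Difference in RMA expression (log2, horizontal axis), MondoA shRNA minus control shRNA, for each gene (rows) with all 5 arrays (points), its 95% interval from limma (grey) and the range of the difference when 1 array is left out (orange). All 10 intervals include 0, and the largest differences are 0.72 for STAT5A and -0.63 for SOCS2.

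The feedback targets were also set against the upstream genes within each clone. Each gene was centred on its mean over the 5 arrays, and the mean of the 3 feedback targets minus the mean of the 7 receptor, kinase and STAT5 genes was taken for each clone, as a description with no test. It was -0.10, -0.22 and 0.04 in MondoA shRNA clones 1, 2 and 3, against 0.10 and 0.18 in control shRNA clones 1 and 2, a difference of -0.24. Every MondoA shRNA clone lay below both controls. The largest single deviations were those of SOCS2 and STAT5A. In clone 1 SOCS2 stood 0.86 below its mean (a deviation of -0.86), and in clone 2 STAT5A stood 0.83 above its own. With SOCS2 left out of the feedback targets the same quantity was 0.21, -0.30 and 0.07 in MondoA shRNA clones, against -0.05 and 0.07 in control shRNA clones, a difference of -0.02 with groups that overlapped. With STAT5A left out of the upstream genes it was -0.07, -0.12 and 0.04 in MondoA shRNA clones, against 0.05 and 0.10 in control shRNA clones, a difference of -0.12, and every MondoA shRNA clone was still below both controls. With both SOCS2 and STAT5A left out the difference was 0.09. These versions were chosen after the values were seen. With medians in place of means over all 10 genes the groups overlapped, at 0.10, -0.16 and 0.04 in MondoA shRNA clones, against 0.02 and 0.03 in control shRNA clones.

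By role, the receptor chains averaged -0.41, 0.22 and -0.10 around their means in MondoA shRNA clones 1, 2 and 3, against 0.17 and 0.12 in control shRNA clones. The STAT5 pair averaged 0.01, 0.55 and -0.02 in MondoA shRNA clones, against -0.17 and -0.37 in control shRNA clones. The spread among the MondoA shRNA clones (SD 0.31 for the receptor chains and 0.32 for the STAT5 pair) was larger than the spread between the control shRNA clones (SD 0.03 and 0.14). MondoA shRNA clone 1 alone held the lowest value of 5 of the 10 genes (IL7R, IL2RG, JAK1, JAK3 and SOCS2) and of 22.2% of all genes. MondoA shRNA clone 2 alone held the highest value of 3 of the 10 (IL2RG, STAT5A and STAT5B) and of 23.6% of all genes. An extreme value tied between arrays counted for none of them, which lowers the shares over all genes.

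**Figure D3:**
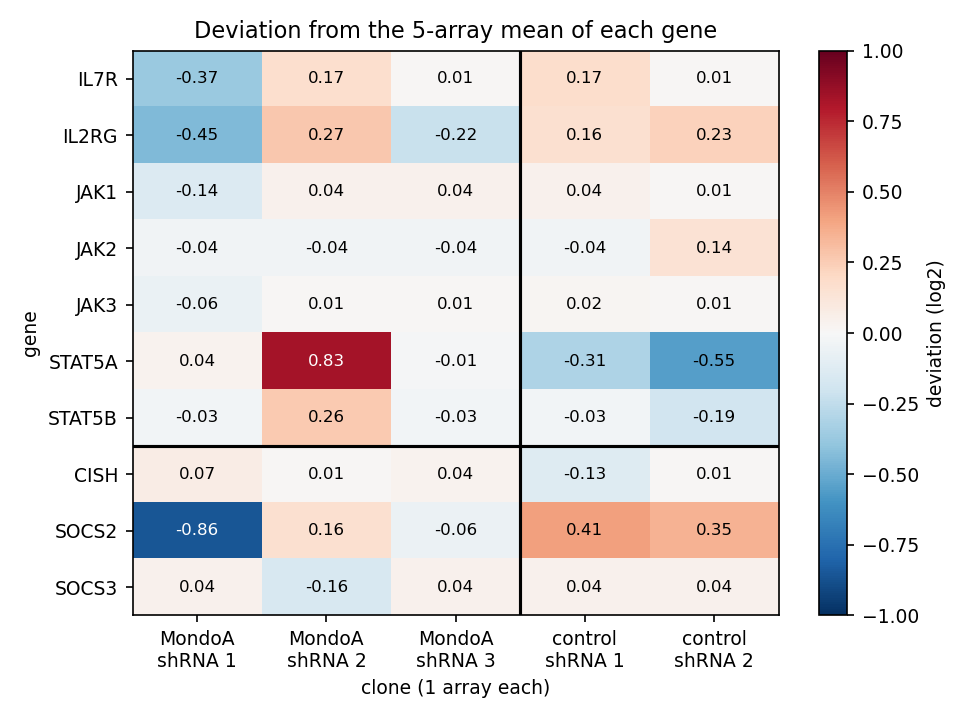
Deviation of each gene (rows) from its own mean over the 5 arrays (log2, colour and printed value) in 3 MondoA shRNA clones (left) and 2 control shRNA clones (right), with receptor, kinase and STAT5 genes above the horizontal line and feedback targets below it. The extreme cells are SOCS2 at -0.86 in MondoA shRNA clone 1 and STAT5A at 0.83 in MondoA shRNA clone 2.

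The genes with the most similar profiles were found for the members with the widest range over the arrays, as the Euclidean distance over 5 arrays after centring each gene. STAT5A had a range of 1.38, and a flat profile would lie 1.04 from it. The nearest genes were GPR18, a G-protein-coupled receptor gene, at a distance of 0.12, PSD3, an exchange factor gene, at 0.17 and GNG7, a G-protein subunit gene, at 0.19. GPR18 read 5.22, 6.13 and 5.22 in MondoA shRNA clones 1, 2 and 3, against 5.02 and 4.73 in control shRNA clones. SOCS2 had a range of 1.27, and a flat profile would lie 1.03 from it. The nearest were ERG, an ETS-family transcription factor gene, at 0.12, CPS1, a urea cycle enzyme gene, at 0.22 and the antisense gene ZNF407-AS1 at 0.22. ERG read 6.10, 7.09 and 6.88 in MondoA shRNA clones 1, 2 and 3, against 7.48 and 7.28 in control shRNA clones. For IL2RG, with a range of 0.72 and a flat profile at 0.63, the nearest were NMI, whose protein binds STAT factors and MYC, at 0.10, the calcineurin subunit gene PPP3CC at 0.10 and the cytochrome gene CYB5A at 0.11. ZNF407-AS1 and CYB5A lie on chromosome 18, whose 110 genes with means above 5 were all lower with MondoA shRNA. These distances are a description over 5 arrays and carry no test.

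The wider pathway was read from lists of related genes. Of 24 other cytokine receptor chains 22 were measured, of which 15 lay below the median gene level in both groups. Their differences ran from -0.26 to 0.29 with a median of 0.02. In limma 0 passed the adjusted test (0% of all genes) and 0 stood at an unadjusted p under 0.05 (3.73% of all genes). The lowest p-values belonged to IL2RA (difference 0.10), the interleukin 2 receptor alpha chain, CSF2RB (0.13), the common beta chain, and IL3RA (-0.04), and in CSF2RB the MondoA shRNA clones read 5.90, 6.07 and 5.98, against 5.80 and 5.90 in control shRNA clones. IL2RB, the beta chain of the interleukin 2 receptor, was the single gene of these 22 whose groups did not overlap, against 10% of all genes. Its difference was 0.01, at 3.2281 in all 3 MondoA shRNA clones against 3.2085 and 3.2252 in control shRNA clones. Those values lay below the median gene level, as did those of IL2RA and IL3RA. IL2RB was named after its values were seen. CRLF2, which pairs with IL7R to bind TSLP, read 2.62, 2.39 and 2.45 in MondoA shRNA clones, against 2.54 and 2.38 in control shRNA clones, all below the median gene level, and was also named after its values were seen. Of the 7 ligands of these receptors 6 were measured and all 6 lay below that level in both groups, IL7 and TSLP among them. The ligands with the lowest p-values were IL21 (0.07), IL2 (-0.04) and IL4 (-0.03).

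The other kinases and STAT factors differed little. Of 6 listed, 4 were measured, with a median difference of 0.05. Of these, 0 reached a limma p under 0.05 before adjustment, against 3.73% of all genes. STAT6, the interleukin 4 factor, read between 7.99 and 8.02 in MondoA shRNA clones, against 7.99 in both control shRNA clones. STAT3, which lies beside STAT5A on chromosome 17, differed by 0.10 and the dim STAT4 by 0.21. The higher values of STAT5A were therefore not matched in size by any other measured STAT gene, although the differences between these genes were not tested.

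Among 17 other negative regulators, 16 were measured, with a median difference of 0.00 and 0 passing the adjusted test in limma. PTPN6, the phosphatase SHP-1, read 8.85, 8.91 and 8.85 in MondoA shRNA clones, against 8.78 and 8.81 in control shRNA clones, a difference of 0.07 (limma unadjusted p = 0.0493, adjusted p = 0.833). PIAS2, a SUMO ligase that acts on STAT factors, read 7.07, 7.46 and 7.14 in MondoA shRNA clones, against 7.94 and 7.55 in control shRNA clones. Its difference of -0.52 was the largest of the list (limma unadjusted p = 0.0600, adjusted p = 0.833). CBL, a ubiquitin ligase of receptors, differed by -0.09 with groups that did not overlap. Every MondoA shRNA clone was above both controls for 1 of the 16 and below both for 2 (4.85% and 5.18% of all genes). PIAS2 lies on chromosome 18, and on that chromosome the 110 genes with means above 5 were all lower with MondoA shRNA (median difference -0.42, against 0.01 for genes of that brightness elsewhere).

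The largest differences of the related lists were among genes commonly named as STAT5 targets. All 12 were measured, the median difference was 0.01, and 0 passed after adjustment. Before adjustment, 1 was higher at a limma p under 0.05 (1.55% of all genes) and 2 were lower (2.18% of all genes). Every MondoA shRNA clone was above both controls for 2 of the 12 and below both for 2 (4.85% and 5.18% of all genes). BCL2, the restrainer of apoptosis, read 6.29, 6.32 and 6.27 in MondoA shRNA clones 1, 2 and 3, against 7.31 and 7.11 in control shRNA clones. All MondoA shRNA clones lay close together and far below the controls, with a difference of -0.92 ± 0.07 (SE, limma unadjusted p = 0.000397, adjusted p = 0.386). BCL2 lies on chromosome 18 as well, where the 110 genes with means above 5 were all lower (median difference -0.42). Whether its difference is part of that pattern was not tested.

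MCL1, another restrainer of apoptosis, read 8.83, 8.76 and 8.88 in MondoA shRNA clones, against 9.18 and 9.01 in control shRNA clones, a difference of -0.27 (limma unadjusted p = 0.0230, adjusted p = 0.833). BCL6, a transcriptional repressor that STAT5 is known to hold down in B-cell precursors, read 7.20, 7.30 and 7.82 in MondoA shRNA clones, against 6.76 and 6.64 in control shRNA clones. The BCL6 difference was 0.74 ± 0.23 (SE), with every MondoA shRNA clone above both controls (limma unadjusted p = 0.0386, adjusted p = 0.833). PIM2, a kinase gene named after its values were seen because its groups did not overlap, differed by 0.29. In RNA, PIM2 and BCL6 read higher while BCL2 and MCL1 read lower. Because STAT5 is known to hold BCL6 down, these directions of RNA are not directions of STAT5 activity, which was not tested.

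**Figure D4:**
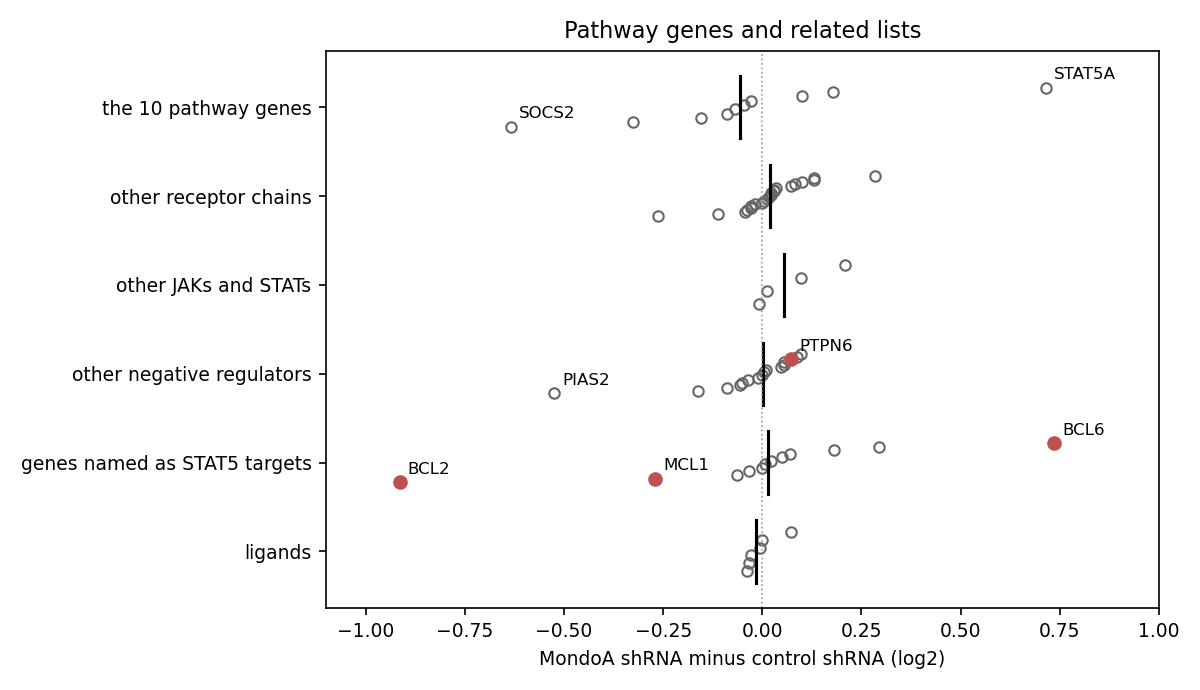
Difference in RMA expression (log2, horizontal axis), MondoA shRNA minus control shRNA, for the 10 pathway genes and 5 lists of related genes (rows), with each circle a gene, the vertical line the list's median and filled red circles genes at an unadjusted limma p under 0.05. BCL2 at -0.92 and BCL6 at 0.74 lie farthest from 0 and no gene passes after adjustment.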

How the data were processed

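RNA (200 ng per clone) was hybridised to Affymetrix whole-transcript arrays, 1 per clone. Per the submitters' processing notes, the authors summarised the probes with RMA in Affymetrix Expression Console 1.1. The deposited values are on a log scale whose base the sources used here do not give, and it was taken as log2. The table held 33297 probe sets with values from 1.42 to 13.3. Symbols came from the platform annotation (1 symbol for 19460 probe sets, several for 1754, none for 12083), and 19429 matched a current gene in a RefSeq table of GRCh38.p14. The probe set with the highest mean was kept for each gene, which left 18417 genes. The number of arrays limits the precision, and no detection calls or array dates were used here.

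Groups were compared with limma 3.58.1 in R 4.3.3 (linear model, empirical Bayes moderation, two-sided, threshold 0.05 after Benjamini-Hochberg adjustment over all genes), and the step was tested on simulated data. The members and lists were chosen with earlier results of these data known. Named genes were all members, up to 3 of the lowest p in each related list, list genes with an absolute difference of at least 0.5, and 3 nearest profiles for each of the 3 most variable members. Alternatives left out each array, changed the normalization, filter, prior, weights (statmod 1.5.0) or probe set rule, used the shared replicate number as a block, or kept genes without tied values. The labels do not say that clones sharing a number are related. Promoters are RefSeq sequences of GRCh38.p14.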

Additional observations from a re-analysis of the deposited data

How the results depend on the processing

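Leaving out genes with any value shared between arrays was chosen after seeing the data. The 10 genes kept the sign of their difference or fell to 0 under all alternatives run, except JAK1, which ran from -0.075 to 0.0126 with 1 array left out and was positive without MondoA shRNA clone 1. Several alternatives leave the difference itself unchanged, and with STAT5A and SOCS2 separating the groups no left-out array could turn their sign. STAT5A ran from 0.44 to 0.86 and SOCS2 from -0.84 to -0.33 over the alternatives. The number of the 10 genes called by limma was 0 with all arrays, against 0% of all genes. It was also 0 with any 1 MondoA shRNA clone left out. Leaving out a control shRNA clone leaves 1 control, which is taken to vary as much as the MondoA shRNA clones do. Calls made then rest on that assumption and are not read. Without control shRNA clone 1 the JAK2 difference was -0.18, where the 3 MondoA shRNA values are equal. The number at an unadjusted p under 0.05 was 0 with all arrays and ran from 0 to 2 with 1 MondoA shRNA clone left out. The 2 were IL2RG and STAT5A without MondoA shRNA clone 2, where 5.53% of all genes stood at that p. The number was 2 (STAT5A and SOCS2) of the 3 members left without tied values, where 12.8% of 4301 genes stood at that p.

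Over all genes, limma called 0 genes. It called 2 after a further quantile normalisation, 2 after centring each array on its median, 3 when moderation was dropped and 60 of the genes free of ties. Leaving out an array gave 0 to 752 (752 without control shRNA clone 1 and 454 without control shRNA clone 2). The unadjusted count was 687 with all arrays. The feedback minus upstream difference of -0.24 ran from -0.30 to -0.17 with 1 array left out and was -0.15 with array weights. With the replicate block, which pairs clones that share no more than a number, it was -0.30 and the block called 0 genes. Deviations of same-numbered clones correlated at -0.29 and -0.23. Deviations from a mean over the same arrays tend to correlate negatively even between unrelated arrays. These correlations therefore cannot show whether same-numbered clones are related, and no conclusion is drawn from them. The filter on dim genes left 7 of the 10 genes, without JAK2, CISH and SOCS3, and no dim probe set could be checked for detection.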

Other observations

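STAT5A, STAT5B and STAT3 are neighbours on chromosome 17, and the genes around them were read after the values were seen. The difference between MondoA shRNA clone 2 and the mean of the other 4 clones was 1.04 for STAT5A, 0.33 for STAT5B and 0.18 for STAT3. Of the measured genes on the STAT5B side, in order from the nearest, GHDC stood at 0, HCRT at 0.01 and KCNH4 at -0.08. RAB5C, a GTPase gene of early endosomes, followed at 0.57 and HSPB9 at -0.07. On the STAT3 side, in order from the nearest, CAVIN1 stood at 0.04, ATP6V0A1 at -0.27, NAGLU at -0.02, HSD17B1 at -0.16 and COASY at -0.10. The median over 478 chromosome 17 genes with a mean level above 5 was 0.02, against 0.05 over 7450 such genes of all chromosomes.

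SOCS2 and STAT5A read in opposite directions in the same comparison. Relative to each gene's mean, STAT5A minus SOCS2 was 0.90, 0.67 and 0.05 in MondoA shRNA clones 1, 2 and 3, against -0.72 and -0.90 in control shRNA clones 1 and 2. MondoA shRNA clone 3 lay nearest to the controls, and the pair was chosen after its values were seen, so no test is given.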
